A study of Mus musculus with 18 samples.

Results

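S100a8, S100a9 and Lcn2 were measured in 2 brain structures of mice exposed to social defeat. Their probes were all those to which the platform's probe table gives one of the 3 symbols. Each gene had 1 probe, so 3 of the 44505 probes tested, and 3 of the 17274 genes the table names, are described. The 3 genes had been selected on their higher level in susceptible than in control pools, so those differences are given below as a description, with no test.

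Calprotectin is the complex of the calcium-binding proteins S100A8 and S100A9, which is stored in large amounts in neutrophils, is also made by monocytes, and acts on the receptors Tlr4 and Ager (RAGE) when released. Lipocalin 2, encoded by Lcn2, is a secreted protein that binds bacterial siderophores and so withholds iron from bacteria; neutrophils store it, and astrocytes, endothelial cells and liver are known to make it during inflammation. All 3 are known as genes that inflammation and infection induce, and in brain tissue they can come from blood cells in the vessels as well as from cells of the tissue itself.

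RNA was measured on one-colour arrays in the nucleus accumbens (NAc), a part of the ventral striatum, and in the ventral tegmental area (VTA), which holds midbrain dopamine neurons. In each structure there were pools of defeated mice classed as susceptible, of defeated mice classed as unsusceptible, and of control mice that were not defeated, with 3 pools in each of the 6 groups. All mice were C57BL/6J males of 10.5 weeks, the labels name no transgene or drug, and each pool joined tissue of 4 mice. All p-values therefore measure the spread between pools, and a pool hides the spread between its mice.

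The 18 arrays had median intensities from 148.3 to 253.1, the highest on NAc unsusceptible pool 3. The structure labels were checked against markers: 4 of 4 dopamine neuron genes (Th, Slc6a3, Slc18a2, Ddc) were above all NAc pools in every VTA pool, and 4 of 4 medium spiny neuron genes (Drd1, Drd2, Ppp1r1b, Rgs9) were below all NAc pools in every VTA pool. NAc unsusceptible pool 3, NAc control pool 3 and VTA unsusceptible pool 3 stood apart from their groups over all probes, and results that change without them are given with both values.

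The genes stand at 2 places of the genome. S100a8 and S100a9 are next to each other on chromosome 3, within a run of S100 genes, and Lcn2 is on chromosome 2. Their promoters are printed because the 3 genes were high in the same groups and because C/EBP factors, for which the letters TTNNGNAA were searched, are known to drive genes of the myeloid lineage. The sequences come from RefSeq in the build GRCm38.p6 and run 5′ to 3′ on the strand of the gene, with 250 bases before the annotated start and 30 after it. Capitals mark matches on either strand to TTNNGNAA or to the TATA box letters TATAAA. They cover chr3:90668821-90669100 on the plus strand for S100a8, chr3:90695692-90695971 on the minus strand for S100a9, and chr2:32387710-32387989 on the minus strand for Lcn2.
S100a8 promoter: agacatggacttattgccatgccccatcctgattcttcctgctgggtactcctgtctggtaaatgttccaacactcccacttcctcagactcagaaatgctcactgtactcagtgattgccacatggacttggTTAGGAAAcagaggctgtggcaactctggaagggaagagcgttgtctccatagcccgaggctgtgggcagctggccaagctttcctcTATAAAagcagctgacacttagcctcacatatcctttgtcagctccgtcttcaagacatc
S100a9 promoter: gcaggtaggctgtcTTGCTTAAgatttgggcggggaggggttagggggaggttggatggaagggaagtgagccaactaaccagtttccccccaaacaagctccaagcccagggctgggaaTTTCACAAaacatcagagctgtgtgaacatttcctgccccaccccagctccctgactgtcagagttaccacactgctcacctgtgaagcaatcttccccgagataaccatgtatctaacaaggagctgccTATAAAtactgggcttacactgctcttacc
Lcn2 promoter: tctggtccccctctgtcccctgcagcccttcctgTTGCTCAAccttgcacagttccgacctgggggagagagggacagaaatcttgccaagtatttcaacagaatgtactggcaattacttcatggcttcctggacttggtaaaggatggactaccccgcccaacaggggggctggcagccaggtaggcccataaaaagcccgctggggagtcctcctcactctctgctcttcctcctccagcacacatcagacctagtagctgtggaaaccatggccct

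Within 250 bases before and 50 after the start, the C/EBP letters stood once in the S100a8 promoter, 117 bases before the start, and once in the Lcn2 promoter, 216 bases before it. The S100a9 promoter held 2 matches, 236 and 130 bases before the start. The same letters were in 40.7% of the 32851 promoters of that table, so a match is common. TATAAA stood 30 bases before the start of S100a8 and at the annotated start of S100a9, had no match in the Lcn2 window, and was in 13.6% of promoters. No match was found in the 3 windows to an NF-kB motif (in 1.63% of promoters), to the STAT letters TTCNNNGAA (in 8.30%) or to the glucocorticoid response element (in 0.0944%), which says only that these letters are not there. None of the matches in one promoter overlapped another.

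Levels are given as quantile normalized intensity on the log2 scale, where the mean of the median probe was 7.39. S100a8, one of the calprotectin subunits, reached 8.05, 8.30 and 9.20 log2 units in NAc susceptible pools 1, 2 and 3, and 8.38, 8.03 and 7.55 in the NAc unsusceptible pools, against 7.17, 7.11 and 7.22 in the NAc control pools. Every defeated NAc pool was above every control pool, as for 5.82% of all probes in the susceptible and 6.7% in the unsusceptible pools, and the susceptible and unsusceptible pools overlapped. In the VTA it reached 8.56, 7.98 and 8.96 in susceptible pools and 8.57, 7.87 and 7.47 in unsusceptible pools, against 7.20, 6.93 and 6.97 in control pools. The defeated VTA pools were likewise above all controls, as for 4.87% of all probes in the susceptible and 6.47% in the unsusceptible pools, and pool 1 of the unsusceptible group was as high as pool 1 of the susceptible group.

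S100a9, the other calprotectin subunit, reached 8.24, 8.14 and 9.18 log2 units in NAc susceptible pools and 8.29, 8.05 and 7.48 in NAc unsusceptible pools, against 7.18, 7.17 and 7.05 in NAc control pools. In the VTA it reached 8.53, 7.64 and 9.03 in susceptible pools and 8.22, 7.83 and 7.59 in unsusceptible pools, against 7.38, 7.31 and 7.05 in control pools. The highest pool of both structures was susceptible pool 3, and VTA susceptible pool 2 lay inside the range of the VTA unsusceptible pools. Every defeated pool of a structure was again above every control pool of it, as for 4.87% to 6.7% of all probes by comparison.

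Lcn2 reached 8.53, 9.02 and 8.91 log2 units in NAc susceptible pools and 8.72, 8.97 and 7.33 in NAc unsusceptible pools, against 7.12, 7.13 and 7.30 in NAc control pools. In the VTA it reached 8.58, 8.81 and 8.58 in susceptible pools and 8.90, 7.41 and 7.56 in unsusceptible pools, against 7.09, 7.02 and 7.20 in control pools. The 6 susceptible pools lay close together, while the unsusceptible pools were split. NAc pools 1 and 2 and VTA pool 1 were as high as the susceptible pools, and NAc pool 3 and VTA pools 2 and 3 were only a little above the controls. Unsusceptible pool 3 of both structures was among the arrays that stood apart over all probes. NAc unsusceptible pool 3, on the array of highest median, read 233.0 for Lcn2 before normalization, against 132.3 to 160.2 on the NAc control arrays. The median of its own array was higher still, at 253.1. Relative to the array median Lcn2 was at -0.12 log2 units in this pool. NAc control pools 1, 2 and 3 were at -0.26, -0.27 and -0.08, so this pool was then below control pool 3.

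**Figure D1:**
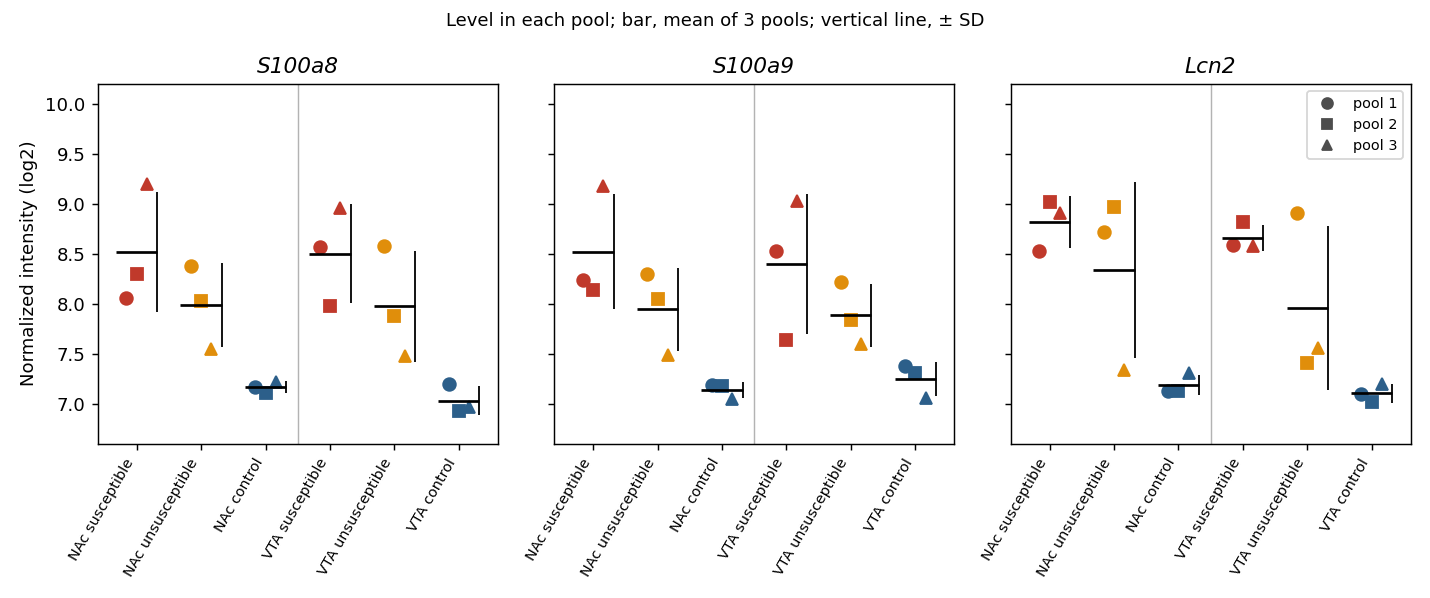
Normalized intensity (log2) of S100a8, S100a9 and Lcn2 in each of the 18 pools, by structure and behaviour group; symbols mark the pool number, horizontal bars the mean of 3 pools and vertical lines ± SD. After quantile normalization every susceptible and unsusceptible pool sits above all control pools of its structure, as for 4.87% to 6.7% of all probes by comparison. Relative to the array medians, NAc unsusceptible pool 3 was below NAc control pool 3 for Lcn2. The Lcn2 level of the unsusceptible pools runs from 7.33 to 8.97 in the NAc.

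These probes were dim in control mice. The S100a8 probe read 264.1, 323.8 and 566.9 intensity units on the NAc susceptible arrays, against 164.6, 130.4 and 148.9 on the NAc control arrays, before normalization. In the NAc control pools S100a8 was at percentile 24.5 to 35.8 of all probes of its array, S100a9 at 18.4 to 32.2 and Lcn2 at 26.2 to 43.1. In the VTA control pools these ranges were 9.08 to 33.4 for S100a8, 19.1 to 48.4 for S100a9 and 15.5 to 33.5 for Lcn2. All control values were thus below the middle of their array, while the 6 susceptible pools were between percentile 61.2 and 81.3 for the 3 genes. The files hold no detection flag or background value, so how far these control levels lie above background is not known, and a log2 difference from a level near background understates a change.

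The order of the group means was alike for the 3 genes. S100a8 averaged 8.52 ± 0.60 in NAc susceptible, 8.50 ± 0.49 in VTA susceptible, 7.98 ± 0.42 in NAc unsusceptible, 7.97 ± 0.56 in VTA unsusceptible, 7.17 ± 0.06 in NAc control and 7.03 ± 0.14 in VTA control pools (log2, SD, n = 3 each). S100a9 averaged 8.52 ± 0.57, 8.40 ± 0.70, 7.94 ± 0.42 and 7.88 ± 0.32 in the same 4 defeated groups in that order, then 7.25 ± 0.17 in VTA control and 7.14 ± 0.08 in NAc control pools. Lcn2 averaged 8.82 ± 0.26, 8.66 ± 0.13, 8.34 ± 0.88 and 7.96 ± 0.82 in the 4 defeated groups, then 7.19 ± 0.10 in NAc control and 7.10 ± 0.09 in VTA control pools. For each gene, neighbours in this order overlapped in their pools, except the lowest defeated group and the highest control group. The SD between pools was 0.13 to 0.88 in the defeated groups and 0.06 to 0.17 in the control groups. The limma fit used below takes a single spread per probe for all groups. Its SE and intervals are therefore too wide for control pools alone and can be too narrow for the most variable groups.

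In the NAc, susceptible pools were above control pools by 1.63 ± 0.30 log2 units for Lcn2 (SE of the limma fit, 3.10-fold), 1.38 ± 0.26 for S100a9 (2.61-fold) and 1.35 ± 0.26 for S100a8 (2.55-fold). These were the 3rd, 6th and 10th highest differences of the 44505 probes, and 0.0652% of all probes were called in that comparison (0.0629% higher). In the VTA the differences between susceptible and control pools were 1.56 ± 0.30 for Lcn2 (2.94-fold), 1.47 ± 0.26 for S100a8 (2.77-fold) and 1.15 ± 0.26 for S100a9 (2.22-fold), the 3rd, 4th and 16th highest, where 0.00225% of all probes were called higher. Since these comparisons chose the genes, nothing is read from the ranks or counts. In tissue RNA, fewer or more cells that carry these transcripts and less or more RNA per cell cannot be told apart.

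The unsusceptible pools did not choose the genes, although they were compared with the same control pools. Control values that were low by accident would raise these differences and ranks as well. Nothing is read from the ranks in either structure. None of the 3 genes passed limma's test between unsusceptible and control pools in either structure, after Benjamini-Hochberg adjustment over all probes at 0.05. In the NAc, Lcn2 was 1.15 ± 0.30 log2 units above control (2.23-fold, 95% interval 0.53 to 1.78, limma adjusted p 0.115). S100a8 was 0.82 ± 0.26 above control (1.76-fold, interval 0.28 to 1.36, limma adjusted p 0.201) and S100a9 0.81 ± 0.26 (1.75-fold, interval 0.27 to 1.35, limma adjusted p 0.211). These were the 2nd, 12th and 15th highest of all probes, and 1 probe, 0.00225% of all, passed in either direction. All 3 unsusceptible NAc pools were above all control pools for each gene, as for 6.7% of all probes in that comparison. For Lcn2 this rested on 7.33 in unsusceptible pool 3 against 7.30 in control pool 3. Relative to the array median the order of these 2 pools was reversed, at -0.12 against -0.08.

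In the VTA, S100a8 was 0.94 ± 0.26 log2 units above control in the unsusceptible pools (1.92-fold, interval 0.40 to 1.48, limma adjusted p 0.463). Lcn2 was 0.86 ± 0.30 above control (1.81-fold, interval 0.23 to 1.48, limma adjusted p 0.549) and S100a9 0.63 ± 0.26 (1.55-fold, interval 0.09 to 1.18, limma adjusted p 0.635). They were the 22nd, 31st and 63rd highest of all probes, where 3 probes passed, 0.00674% of all, none of them higher. All 3 pools were above all controls for each gene, as for 6.47% of all probes in that comparison. Without unsusceptible pool 1 the difference of Lcn2 was 0.39.

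The call in the NAc depended on the scaling. With each array scaled to one median in place of quantile normalization, the 3 genes passed in the NAc unsusceptible pools, with Lcn2 at 1.13 (limma adjusted p 0.0186), S100a8 at 0.84 (0.0315) and S100a9 at 0.81 (0.0371). The size of the differences hardly moved, and 1229 probes, 2.76% of all, passed with that scaling, 1186 of them higher. Without the 3 arrays that stood apart, Lcn2 was 1.72 above NAc control and just passed (limma adjusted p 0.0498).

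**Figure D2:**
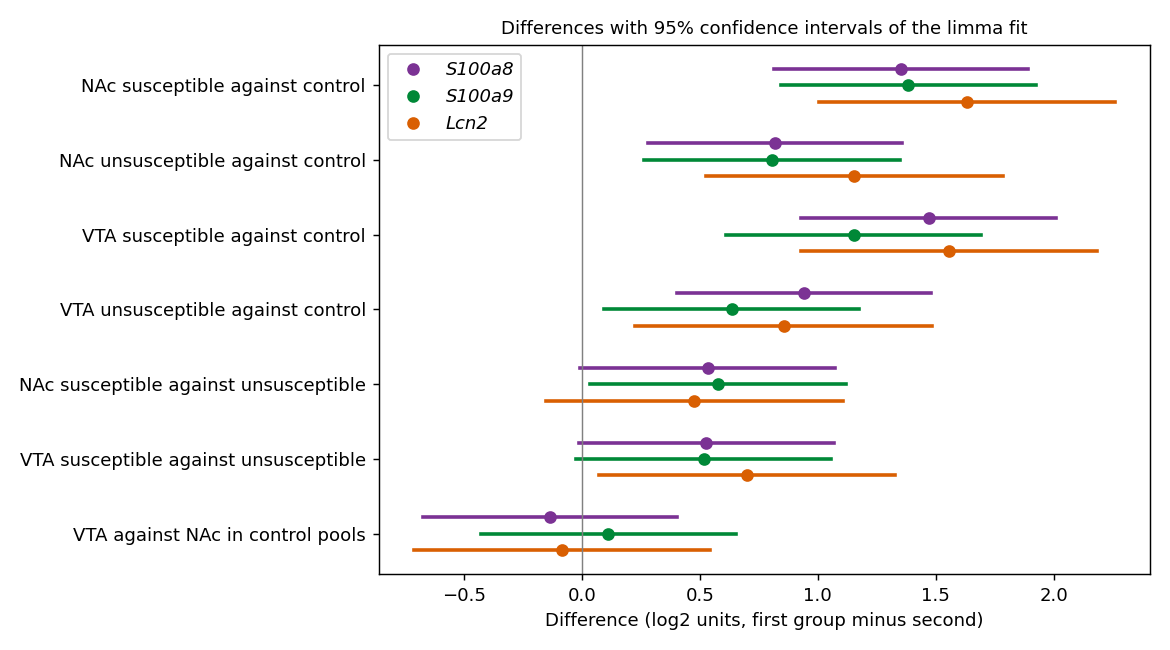
Log2 differences of S100a8, S100a9 and Lcn2 with the 95% confidence interval of the limma fit, for 7 comparisons; the first-named group is on the positive side. Differences of both defeated groups from control lie above 0 in both structures, and control pools of the 2 structures differ by -0.13 to 0.11.

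Susceptible and unsusceptible pools, the 2 classes of defeated mice, were also compared directly. The susceptible pools helped to choose the genes, so a higher mean there is not independent. In the NAc, susceptible pools were above unsusceptible pools by 0.58 for S100a9 (interval 0.04 to 1.12), 0.53 for S100a8 (interval -0.01 to 1.07) and 0.48 for Lcn2 (interval -0.15 to 1.11), each with a limma adjusted p of 0.999. In the VTA they were above by 0.70 for Lcn2 (interval 0.07 to 1.33, limma adjusted p 0.897), 0.53 for S100a8 (interval -0.01 to 1.07, limma adjusted p 0.904) and 0.52 for S100a9 (interval -0.02 to 1.06, limma adjusted p 0.910). Of all probes, 1 (0.00225%) passed in the NAc and 0 in the VTA, where 2465 probes had an unadjusted limma p under 0.05. For each gene the pools of the 2 classes overlapped in both structures, while 5.31% of all probes in the NAc and 5.07% in the VTA had every susceptible pool above every unsusceptible one. Single pools moved these differences by over 1.5 times. Without NAc unsusceptible pool 3 the NAc difference was -0.03 for Lcn2, 0.31 for S100a8 and 0.34 for S100a9, and without NAc unsusceptible pool 2 it was 0.79 for Lcn2. Without NAc susceptible pool 3 it was 0.19 for S100a8 and 0.25 for S100a9. In the VTA, leaving out susceptible pool 3 gave 0.30 for S100a8 and 0.20 for S100a9, and leaving out susceptible pool 2 gave 0.79 and 0.90. Without VTA unsusceptible pool 1 the difference was 0.83 for S100a8 and 1.18 for Lcn2, without pool 2 it was 0.43 for Lcn2, and without pool 3 it was 0.28 for S100a8.

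In control mice the 3 genes did not pass a test between the structures. VTA control pools differed from NAc control pools by -0.13 for S100a8, 0.11 for S100a9 and -0.08 for Lcn2 (limma adjusted p 0.822, 0.857 and 0.911, intervals reaching 0.71 log2 units to either side at most), while 19.4% of all probes passed there. These intervals use the spread of all 6 groups, with SE of 0.261, 0.262 and 0.304. With the control arrays alone the SE were 0.099, 0.103 and 0.096, and none of the 3 genes passed (limma adjusted p 0.455, 0.577 and 0.675). The difference between unsusceptible and control pools, taken as VTA minus NAc, was 0.12 ± 0.37 for S100a8, -0.17 ± 0.37 for S100a9 and -0.30 ± 0.43 for Lcn2 (limma adjusted p 0.941, 0.911 and 0.851). No probe passed that interaction, and 4698 had an unadjusted limma p under 0.05. The signs for all 3 genes turned when single unsusceptible pools were left out.

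The 2 calprotectin subunits moved together from pool to pool. Across the 12 defeated pools S100a8 and S100a9 had a Pearson r of 0.953 and a Spearman rho of 0.930 (permutation p 1e-05, the smallest that 100000 resamples can give, and 4e-05; adjusted over 3 pairs 3e-05 and 0.00012). The r was 0.977 in the 6 NAc pools, 0.935 in the 6 VTA pools and 0.892 without the 2 pools farthest from the median of S100a8. With the mean of each of the 4 groups subtracted it was 0.939. The 12 pools include the susceptible pools that served to choose the genes. The permutation moved values across groups. Shared group means therefore enter the p-values of all 3 pairs, except where group means were subtracted. A probe of one gene and a probe of the other thus ranked the pools nearly alike, and the pools with high S100a8, such as susceptible pool 3 of both structures, were those with high S100a9.

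The r of Lcn2 with S100a8 across the 12 defeated pools was 0.664 (permutation p 0.0201, adjusted 0.0302) and rho 0.517 (permutation p 0.0894, adjusted 0.134), with 0.661 in NAc pools, 0.696 in VTA pools and 0.762 without the 2 farthest pools. With group means subtracted this r was 0.567 and no longer passed (adjusted permutation p 0.0810). With S100a9 its r was 0.553 (permutation p 0.0559) and rho 0.364 (permutation p 0.246), with 0.654 in NAc pools, 0.451 in VTA pools and 0.643 without the 2 farthest pools. Whether the correlation of Lcn2 with a subunit is lower than that between the subunits was not tested. In VTA susceptible pool 2, Lcn2 (8.81) was the highest of its group, while S100a8 (7.98) and S100a9 (7.64) were the lowest.

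**Figure D3:**
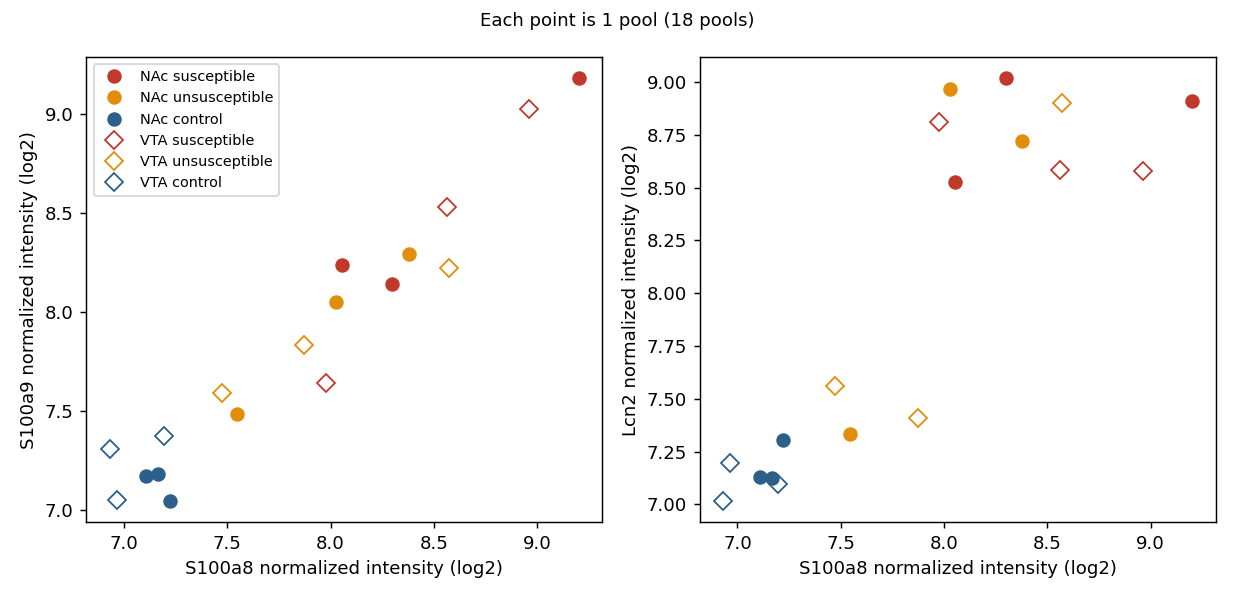
S100a9 (left) and Lcn2 (right) against S100a8, as normalized intensity (log2), in each of the 18 pools, filled circles for NAc and open diamonds for VTA. The control pools gather at the low end of both plots, S100a8 and S100a9 form one line (r = 0.953 over the 12 defeated pools), and the defeated pools fall into a high and a low set in Lcn2.

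Pools with the same number in both structures had similar deviations from their group means for the subunits. Over 9 such pairs r was 0.764 for S100a8, 0.835 for S100a9 and 0.308 for Lcn2, given as a description. The labels do not say whether a number marks the same mice in both structures. If it does, the 12 defeated pools stand for 6 sets of mice. Over the 6 means of same-numbered NAc and VTA pools, r was 0.967 for S100a8 with S100a9 (exact permutation, adjusted p 0.0167) and 0.756 for S100a8 with Lcn2 (exact permutation, adjusted p 0.144). The differences in the NAc and in the VTA are then no independent repeats either.

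Few other probes separated all defeated pools from all control pools of their structure. After quantile normalization this held for 14 of the 44505 probes, 0.0315%, among them the 3 members. For Lcn2 it did not hold relative to the array medians, where NAc unsusceptible pool 3 was below NAc control pool 3. Taken by the mean of the 4 differences from control, Lcn2 (1.30), S100a8 (1.15) and S100a9 (0.99) came first, followed by Lrg1 (0.63), Sox18 (0.30), Adgre1 (0.24), Bcl2a1d (0.23), Sp5 (0.23), an unnamed probe (0.23) and Krit1 (0.22). Lrg1 encodes a secreted glycoprotein made by liver, neutrophils and endothelial cells, Adgre1 the macrophage antigen F4/80, and Bcl2a1d a survival protein of leukocytes. The susceptible pools enter this criterion and had served to pick the 3 members, so their place in it is a description.

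The genes most like the 3 members over all 18 pools were found by Pearson r with the mean of the 3 probes, after the mean of each structure was subtracted. They were Vwf (0.882), Slc38a5 (0.840), Lrg1 (0.829), Adcy9 (0.813), Bcl2a1d (0.798), Ch25h (0.791), Olfr1158 (0.763), Acer2 (0.763), Fgf11 (0.763) and Plac8 (0.759). Vwf encodes von Willebrand factor of endothelium and platelets, Slc38a5 a glutamine transporter and Ch25h cholesterol 25-hydroxylase. None of the 10 passed limma's test in a defeated group against control. Vwf had 2 probes that disagreed, since its dimmer probe differed from control by only 0.03 in NAc and 0.02 in VTA susceptible pools. These r values include the gap between defeated and control pools, so a gene with any such gap ranks high.

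With the mean of each of the 6 groups subtracted, which leaves only the spread within groups, the 10 most alike were Stard10 (0.850), Slc25a11 (0.845), Mrgpra3 (0.842), Emc8 (0.824), Lrg1 (0.818), Prr36 (0.812), Olfr1051 (0.812), Strn (0.807), Pde6d (0.801) and Emx2 (0.788). Lrg1 was the 1 gene on both lists of 10. Its level was 8.33, 8.49 and 8.77 in NAc susceptible pools and 8.72, 8.34 and 8.05 in NAc unsusceptible pools, against 7.79, 7.83 and 7.91 in NAc control pools. In the VTA it was 8.29, 8.37 and 8.53 in susceptible pools and 9.30, 8.49 and 8.15 in unsusceptible pools, against 7.68, 7.83 and 8.08 in control pools. No defeated pool overlapped a control pool of its structure, and Lrg1 passed limma's test in none of these comparisons (adjusted p 0.255 and 1.00 for susceptible pools in NAc and VTA, 0.275 and 0.432 for unsusceptible pools).

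Calprotectin and lipocalin 2 are neutrophil products, so other neutrophil genes were read beside them. Of 32 listed granule and surface genes of neutrophils 27 were measured, and 0 passed limma's test in any of the 4 comparisons of a defeated group with control. Of all probes, 0.0652% passed in NAc susceptible, 0.00225% in VTA susceptible, 0.00225% in NAc unsusceptible and 0.00674% in VTA unsusceptible pools. Every count of passing list genes is to be read against these shares. At an unadjusted limma p under 0.05, 3 were higher in NAc susceptible pools, 3 in VTA susceptible pools, 4 in NAc unsusceptible pools and 2 in VTA unsusceptible pools, where 1 was lower. Over all probes, 8.23%, 3.46%, 11.5% and 6.85% had an unadjusted limma p under 0.05 in either direction in these 4 comparisons in that order, and every list count at that p below is to be read against these shares. The median differences were 0.04, 0.06, 0.05 and 0.02 log2 units in that order, beside -0.01, 0.00, -0.01 and 0.00 over all probes.

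Lrg1 had the largest differences of that list in susceptible pools. In NAc and VTA susceptible pools Mpo (myeloperoxidase) differed from control by -0.04 and -0.07, Elane (neutrophil elastase) by 0.00 and 0.14, Ltf (lactoferrin) by -0.02 and 0.10, Camp (cathelicidin) by 0.06 and -0.01, and Ngp by 0.06 and -0.03. Cxcr2, a chemokine receptor, differed by 0.21 and 0.20, and Pglyrp1, a granule protein, by 0.15 and 0.19. Cd177, a surface protein of neutrophils, differed by 0.13 and 0.26, and Retnlg, a resistin-like gene of neutrophils and marrow, by 0.21 and 0.10. With group means subtracted, r with the mean of the members over 18 pools was 0.724 for Retnlg, 0.53 for Ltf, 0.47 for Elane, 0.19 for Cd177 and 0.18 for Mmp8. It was 0.14 for Camp, 0.01 for Ngp, -0.38 for Mpo and -0.41 for Mmp9, all given as a description. The summed intensity of the 27 genes was 4458 to 4865 in NAc susceptible, 4378 to 4774 in NAc unsusceptible and 4377 to 4459 in NAc control pools, and 4627 to 4797, 4510 to 4887 and 4395 to 4517 in the same VTA groups. Between 13 and 16 of the 27 were below the array median in every pool of a group, and the part of neutrophils in the levels of S100a8, S100a9 and Lcn2 was not tested.

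Of 12 measured red cell genes, 4 globin genes passed limma's test in NAc susceptible against control pools, where 0.0652% of all probes passed: Hbb-bt (1.85, adjusted p 0.00524), Hbb-bs (1.41, 0.0114), Hba-a1 (1.28, 0.0169) and Hbb-b2 (1.22, 0.0114). None passed in the other 3 comparisons, with 6 of 12 higher at an unadjusted limma p under 0.05 in VTA susceptible, 5 in NAc unsusceptible and 3 in VTA unsusceptible pools, against 3.46%, 11.5% and 6.85% of all probes in either direction. The 4 calls were lost without NAc susceptible pool 1 (adjusted p 0.104 to 0.133) and without NAc control pool 3 (0.0967 to 0.118). Leaving out NAc susceptible pool 3, or the 3 arrays that stood apart, ended those of Hba-a1 and Hbb-b2 (0.0658 for both without the pool), and leaving out NAc control pool 1 that of Hbb-bs (0.0504). Summed over the 12 genes, intensity was 61452 to 73301 in NAc susceptible, 32255 to 51548 in NAc unsusceptible and 27812 to 30475 in NAc control pools. In the VTA it was 67889 to 94534 in susceptible, 38847 to 62071 in unsusceptible and 30394 to 56637 in control pools.

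Hbb-bt and the 3 members did not order the pools of any defeated group alike. Among control pools, S100a9 in the NAc and S100a8 in the VTA had the same order as Hbb-bt. Hbb-bt was 12.13, 11.89 and 11.49 in NAc susceptible pools 1, 2 and 3, where S100a8 and S100a9 were highest in pool 3. In NAc unsusceptible pools it was 10.70, 11.13 and 11.14, where both subunits were highest in pool 1. Lcn2 was highest in pool 2 of both NAc groups, at 9.02 and 8.97. In the VTA Hbb-bt was 12.47, 12.10 and 11.71 in susceptible pools and 11.05, 11.46 and 11.52 in unsusceptible pools. With structure means subtracted, r of Hbb-bt with the mean of the members was 0.68 over 18 pools, and with group means subtracted it was -0.39. For Hbb-bs these values were 0.62 and -0.51, and for Hba-a1 0.63 and -0.46. These r values are a description of 3 globin genes without a test, and the part of red cells in the result was not tested.

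Other cell types the tissue could hold were read in the same way. Of 13 measured monocyte and macrophage genes 0 passed limma's test in the 4 comparisons with control, and 4, 4, 4 and 0 had an unadjusted limma p under 0.05 in NAc susceptible, VTA susceptible, NAc unsusceptible and VTA unsusceptible pools, against 8.23%, 3.46%, 11.5% and 6.85% of all probes in either direction. Each of the genes under that p was higher than in control pools. By the mean over both structures the largest in susceptible pools were Lyz2 (lysozyme), 0.54 above control in NAc and 0.41 in VTA susceptible pools, and Lgals3 (galectin 3), at 0.51 and 0.26. The median of that list was 0.15 in NAc and 0.14 in VTA susceptible pools. Of 16 endothelial genes, Sox18 alone passed, in NAc susceptible pools (0.50, limma adjusted p 0.0389), and it did not pass with median scaling (0.617), with the NAc arrays alone (0.129), without the 3 arrays that stood apart (0.180), or without NAc susceptible pool 1 (0.284), susceptible pool 3 (0.437) or control pool 3 (0.190). Of 13 microglia, 14 lymphocyte and platelet, and 9 choroid plexus genes 0 passed, with 0 to 3 of each list at an unadjusted limma p under 0.05, against 3.46% to 11.5% of all probes.

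**Figure D4:**
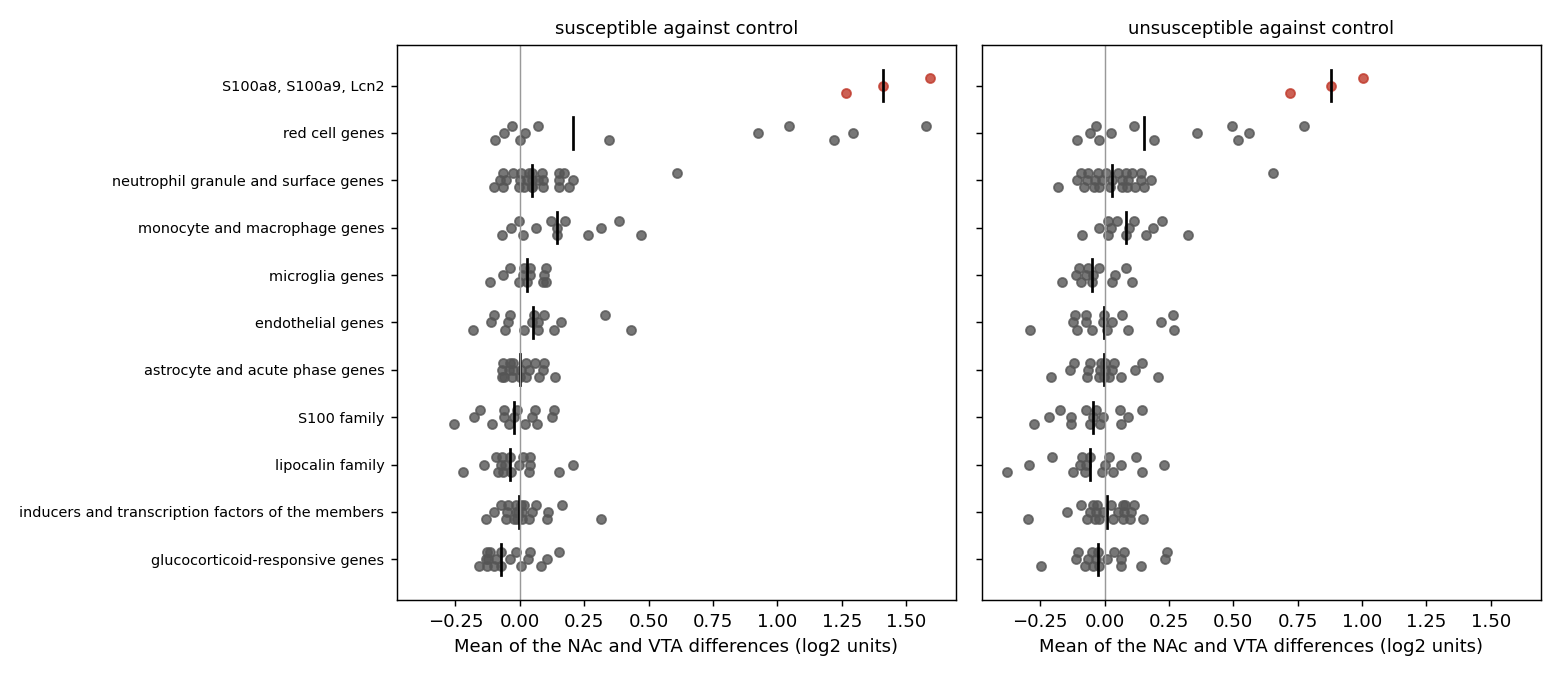
Difference from control, as the mean of the NAc and VTA differences (log2 units), of the 3 members (red, top) and of each measured gene of 10 lists (grey), for susceptible pools (left) and unsusceptible pools (right); black bars are medians. The members lie at 1.27 to 1.59 in susceptible and 0.72 to 1.01 in unsusceptible pools, the globins reach 1.58 and 0.77, the neutrophil genes other than the members reach 0.61 and 0.65 (Lrg1), and the other lists shown reach 0.47 and 0.33 at most.

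Of 16 measured receptors and partners of the 3 proteins, 0 passed limma's test in any of the 4 comparisons, and 1, 1, 5 and 2 had an unadjusted limma p under 0.05 in NAc susceptible, VTA susceptible, NAc unsusceptible and VTA unsusceptible pools, against 8.23%, 3.46%, 11.5% and 6.85% of all probes. Tlr4, the receptor of calprotectin, differed from control by 0.03 in NAc and 0.10 in VTA susceptible pools, and Ager by -0.15 and 0.23. Myd88, the adaptor of Tlr4, differed by 0.24 and 0.12, and Cd14, its co-receptor, by 0.19 and 0.10. Slc22a17, described as a receptor of lipocalin 2, differed by -0.11 and 0.02. Mmp9, which lipocalin 2 binds, differed by -0.02 and 0.01.

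Other genes of the S100 and lipocalin families were read in the same 4 comparisons, in which 0.00225% to 0.0652% of all probes passed. A count of 0 in a list is close to these shares. The S100 list held 15 other measured entries, 14 family genes and S100pbp, which encodes a binding protein, and 0 passed limma's test in the 4 comparisons, with 1 to 3 at an unadjusted p under 0.05, against 3.46% to 11.5% of all probes. S100b, a gene of astrocytes, differed from control by -0.14 in NAc and -0.38 in VTA susceptible pools, and S100a16 by -0.27 and -0.09. The genes around S100a8 and S100a9 on chromosome 3 are S100a7a on one side and Pglyrp4 on the other. S100a7a differed from control by 0.24 in NAc and -0.11 in VTA susceptible pools, Pglyrp4 by 0.00 and 0.07, and S100a6, further along, by -0.02 and 0.06. Near Lcn2, Ptges2 differed by -0.16 and -0.05 and Ciz1 by -0.02 and 0.07. Of 17 other lipocalin family genes 0 passed limma's test, with 0 to 6 at an unadjusted p under 0.05 (6 in VTA unsusceptible pools, 2 of them higher and 4 lower, against 6.85% of all probes there), and Ptgds, the brain's prostaglandin D synthase, differed by -0.22 in both structures of susceptible mice.

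Genes known to induce the 3 members, and genes that glucocorticoids induce, were read in the same way. Between 0.00225% and 0.0652% of all probes passed limma's test in the 4 comparisons, and a count of 0 in a list is close to that. Of 22 measured inducers and transcription factors 0 passed in the 4 comparisons, with 1 to 4 at an unadjusted p under 0.05. The 4 were in VTA susceptible pools, 2 higher and 2 lower, against 3.46% of all probes there. Il1b and Il6 are inflammatory cytokines and Cebpb a C/EBP factor. Il1b differed from control by -0.09 in NAc and 0.11 in VTA susceptible pools, Il6 by -0.03 and -0.07, Tnf by 0.06 and 0.27, and Cebpb by 0.03 and 0.09. Icam1, an adhesion molecule on that list though neither an inducer nor a transcription factor, differed by 0.29 and 0.34. Of 19 astrocyte and acute phase genes 0 passed, with 0 to 3 at an unadjusted p under 0.05, against 3.46% to 11.5% of all probes, and Gfap differed by 0.15 and -0.14 and Serpina3n by -0.05 and 0.23. Of 18 glucocorticoid-responsive genes 0 passed, with 0 to 2 at an unadjusted p under 0.05, against the same shares, and Fkbp5, which glucocorticoids induce, differed by 0.15 in both structures of susceptible mice.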

How the data were processed

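The authors' deposited per-sample tables give each probe a linear intensity, without background or detection columns. Scanner software and earlier background steps: not given in the sources used here. RNA was extracted with a kit, amplified linearly from total RNA and labelled with biotin, per the labels' protocols, and all arrays were run together, per the design text. The series table deposited by the authors holds normalized intensity (the submitters' processing notes name affy), ranked the probes of each array as the scanner values did, and was used as an alternative.

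Scanner intensities of 44505 probes (42 of 44547 were empty) of the 18 arrays were log2 transformed and quantile normalized in limma 3.58.1 (R 4.3.3). One limma fit with a mean per group and an intensity trend gave all differences, with 12 residual degrees of freedom, so the spread was estimated over all 6 groups; the number of arrays limits the precision. Tests were two-sided, with Benjamini-Hochberg adjustment over all probes. Gene names are those of the platform table, which gives 28482 probes 1 gene, 11 several and 16012 none; a gene of a list is represented by its brightest probe. Correlations over defeated pools were tested with 100000 permutations (numpy 2.4.6). The fit and the permutation test were tested on simulated data.

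Named genes are the 3 members, list members past the threshold against control, up to 4 of each list with the largest susceptible differences, a fixed set of markers, and the 10 genes most like the members by each of 2 measures. Chromosomal neighbours were named by position, and Il1b, Il6 and Cebpb for their role after their values were seen. The members and all 14 lists were chosen with earlier results of these data known. Alternatives were median scaling, the authors' table, normexp background correction (offset 16), an offset of 50, bright probes, single structures, array weights, no trend, a replicate block, and arrays left out singly or 3 together. No probe sequences or protein sequences were used here.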

Additional observations from a re-analysis of the deposited data

How the results depend on the processing

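The differences of the 3 genes from control kept their sign in both structures and both defeated groups under the alternatives run. With normexp background correction the differences from control were larger in both defeated groups, at 2.12 (S100a8), 2.20 (S100a9) and 2.48 (Lcn2) in NAc susceptible, 2.44, 1.78 and 2.47 in VTA susceptible, 1.40, 1.41 and 1.78 in NAc unsusceptible and 1.70, 1.10 and 1.44 in VTA unsusceptible pools. Leaving out single pools, the differences between susceptible and control pools ran from 1.01 to 1.59 (S100a8), 1.06 to 1.57 (S100a9) and 1.53 to 1.78 (Lcn2) in NAc and from 1.24 to 1.74, 0.84 to 1.54 and 1.49 to 1.60 in VTA. Those between unsusceptible and control pools ran from 0.62 to 1.00, 0.63 to 1.00 and 0.84 to 1.61 in NAc and from 0.64 to 1.20, 0.47 to 0.78 and 0.39 to 1.13 in VTA, in the same gene order, and those between susceptible and unsusceptible pools from 0.19 to 0.77, 0.25 to 0.76 and -0.03 to 0.79 in NAc and from 0.28 to 0.83, 0.20 to 0.90 and 0.43 to 1.18 in VTA. Control pools of VTA and NAc differed by -0.22 to -0.08, 0.05 to 0.21 and -0.13 to -0.02. With median scaling the NAc unsusceptible differences passed, at 0.84 (adjusted p 0.0315), 0.81 (0.0371) and 1.13 (0.0186), and without the 3 arrays that stood apart Lcn2 passed there at 1.72 (0.0498) and its susceptible against unsusceptible difference was -0.026, as against -0.025 without NAc unsusceptible pool 3 alone. The interaction turned sign for S100a9 without NAc unsusceptible pool 1 (0.0042), for S100a8 without VTA unsusceptible pool 1 (-0.18) or NAc unsusceptible pool 3 (-0.09) and for Lcn2 without NAc unsusceptible pool 2 (0.014), within ranges of -0.39 to 0.0042, -0.18 to 0.37 and -0.78 to 0.01. The cause was not tested. The correlation of S100a9 with Lcn2 passed with normexp (0.594, adjusted p 0.0412), and that of S100a8 with Lcn2 did not pass with group means subtracted (0.567) or over means of same-numbered NAc and VTA pools (0.756, exact permutation, 6 values, chosen after seeing the data). Counts over all probes were unstable. Against 29, 1, 1, 3, 1, 8643 and 0 probes for NAc and VTA susceptible, NAc and VTA unsusceptible against control, NAc susceptible against unsusceptible, VTA against NAc in control pools and the interaction, median scaling gave 11 in VTA susceptible, 1229 in NAc unsusceptible (1186 of them higher), 0 in VTA unsusceptible, 0 in NAc susceptible against unsusceptible, 5087 between structures (3848 higher, against 4652 of 8643) and 8 in the interaction. NAc susceptible against control gave 18 with bright probes, 56 with a replicate block and 5 without the 3 arrays. VTA susceptible against control gave 2 with normexp, 13 with array weights, 14 without the 3 arrays and 0 with bright probes, VTA arrays alone, no trend or the block. NAc unsusceptible against control gave 4 with NAc arrays alone, 137 with the block, 2 without the 3 arrays and 0 with normexp, bright probes or array weights. VTA unsusceptible against control gave 0 with VTA arrays alone, no trend or without the 3 arrays, and NAc susceptible against unsusceptible gave 0 with normexp, NAc arrays alone, the block or without the 3 arrays. Leaving out single pools gave 0 to 143 in NAc susceptible, 0 to 15 in VTA susceptible, 0 to 404 in NAc unsusceptible and 0 to 270 in VTA unsusceptible against control, 0 in NAc and 0 to 138 in VTA susceptible against unsusceptible, 7342 to 8543 between structures and 0 to 61 in the interaction; the highest counts came without NAc control pool 2 (143, 404 and 61), VTA control pool 1 (15) and VTA unsusceptible pool 2 (270 and 138). Same-numbered pools of a structure deviated together with r of -0.05 to 0.20 over all probes, and those of the same group in both structures with -0.01 to 0.17 (different numbers -0.15 to 0.04), so by the rule that every pair exceed 0.1 the numbers were not taken to pair the pools. Single genes varied together in same-numbered NAc and VTA pools (r over 9 pairs 0.91 for Lrg1 and 0.793 for Hbb-bt), and whether the pools share mice is not known. The replicate block changed no call of a member, with Lcn2 in NAc unsusceptible pools at an adjusted p of 0.0946; a block within structure could not be fitted to the comparison between structures, and one across them, chosen after seeing the data, gave 8959 probes. Dim control levels, with no background value, limit all folds.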
